A study of Rattus norvegicus with 18 samples.

Results

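Isg15, Bst2, Irf1, Irf7, Mx2 and Ifit3 are 6 genes that interferons switch on, and their transcripts were followed through 9 colonies from the calvaria of fetal rats, each of them the progeny of 1 cell. They were chosen by name, and every probe set that the platform annotation gives to 1 of these symbols alone was taken, on either of the 2 array types. That gave 7 probe sets of 31142 in all, and 6 genes of 13810 with a probe set of their own. Mx2 was too dim to test, and none of the other 5 genes passed the test between colony types after adjustment over all probe sets. The widest difference was that of Isg15, whose signal was 1385 or more in every colony with both markers and 723 or less in every colony with osteocalcin alone. Bst2 had another order, with its highest group mean in the colonies with neither marker.

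The colonies were primary cultures from the calvaria, the flat bones of the skull roof, of fetal rats. Flow cytometry set out single cells, and each colony was cultured for 4 weeks at 37 C under 5% CO2 in a-MEM with fetal bovine serum, ascorbic acid, BGP and Dex, the last 2 named as the labels give them. The submitters typed each colony by marker expression, and 3 colonies (I, II and III) each carried osteocalcin, a bone matrix protein of osteoblasts, carried both osteocalcin and adipsin, a protease secreted by adipocytes, or carried neither. These types are called osteocalcin, both and neither. RNA from 100 to 300 cells of each colony was amplified and read on an RAE230A array (chip A) and an RAE230B array (chip B), 18 arrays in all. The labels name no interferon treatment, and all 9 shared the same medium. The labels do not say whether the colonies came from separate animals or cell preparations, so the spread behind each p-value is that between colonies.

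Interferons are secreted proteins that cells release on sensing viral nucleic acid, and other inputs such as inflammatory cytokines can call on part of the same programme. They bind receptors at the cell surface, Janus kinases phosphorylate STAT proteins, and STAT and IRF factors enter the nucleus and bind short DNA elements near interferon-induced genes. Type I interferon acts mainly through the interferon-stimulated response element (ISRE) and interferon gamma mainly through the gamma-activated site (GAS). In bone, interferons are known as restraints on osteoclast formation, and osteoblast-lineage cells themselves respond to them. Of the 6 genes, Irf1 and Irf7 encode transcription factors of the pathway, Isg15 encodes a ubiquitin-like protein that is attached to other proteins, Ifit3 encodes a partner in a complex that restrains viral RNA, Bst2 encodes tetherin, which holds budding virus particles at the cell surface, and Mx2 encodes a dynamin-like antiviral GTPase.

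The promoter sequences are shown because these genes are grouped by their shared response to interferon, which is read through such elements. RefSeq windows of 250 bases before to 50 bases after the start site (build GRCr8) were found for 4 of the 6 genes: Bst2, Irf1, Irf7 and Ifit3. They were searched on both strands for the ISRE core GAAANNGAA and for the GAS letters TTCNNNGAA. The ISRE core was in 9.71% and the GAS letters in 8.87% of the 33469 promoter windows of this length. The sequences run 5′ to 3′ along the gene's strand, and capitals mark either match; the ISRE core appears as its reverse complement where it lies on the opposite strand. Bst2 (chr16:18254968-18255217, minus strand), Irf1 (chr10:38417685-38417934, plus strand) and Ifit3 (chr1:241527076-241527325, plus strand) are shown over the 250 bases before the start site. Irf7 (chr1:205800072-205800101, minus strand) is shown over the 30 bases around its match, since the start site of its window lies inside the annotated gene.
Bst2: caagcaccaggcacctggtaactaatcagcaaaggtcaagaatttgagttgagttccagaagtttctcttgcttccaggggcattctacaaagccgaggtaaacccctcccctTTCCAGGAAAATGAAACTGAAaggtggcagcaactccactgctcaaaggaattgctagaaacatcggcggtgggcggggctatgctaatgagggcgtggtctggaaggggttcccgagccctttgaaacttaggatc
Irf1: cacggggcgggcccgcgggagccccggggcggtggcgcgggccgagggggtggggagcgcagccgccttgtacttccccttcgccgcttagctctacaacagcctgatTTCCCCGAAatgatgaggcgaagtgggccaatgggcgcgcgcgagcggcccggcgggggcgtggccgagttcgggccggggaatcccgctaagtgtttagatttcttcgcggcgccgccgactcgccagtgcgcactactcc
Irf7: cagtttaggtTTCATTTTCccgagacgcag
Ifit3: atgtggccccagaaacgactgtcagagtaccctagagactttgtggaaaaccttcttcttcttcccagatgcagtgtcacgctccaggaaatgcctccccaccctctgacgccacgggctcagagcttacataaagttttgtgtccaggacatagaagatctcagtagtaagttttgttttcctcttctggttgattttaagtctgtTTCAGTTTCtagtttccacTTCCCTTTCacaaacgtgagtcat
The Bst2 window held 2 overlapping ISRE cores that begin 131 and 125 bases before the start site, and GAS letters that begin 137 bases before it and overlap the first core. The Ifit3 window held 2 separate ISRE cores, beginning 43 and 24 bases before the start site. The Irf7 window held 1 ISRE core, beginning 68 bases before it. The Irf1 window held GAS letters beginning 142 bases before the start site and no ISRE core. These are letter matches, and binding was not measured.

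The values are MAS5 signals, a linear measure of probe brightness, and each array was rescaled here so that its mean without the highest and lowest 2% of probe sets was 1500. As deposited, osteocalcin I had a mean of 64.4 on chip A, and every other array had 1500. Over all 157 probe sets that the chips share, controls included, osteocalcin III matched itself best (r = 0.43). There both I was closer to both II (r = 0.75) than to itself (r = 0.72). Beside the controls the chips share 100 probe sets. By these, 8 of 9 colonies had their closest match in themselves on the other chip, and osteocalcin III on chip A was closer to both III on chip B (r = 0.55) than to itself (r = 0.40). Which of the arrays this concerns cannot be told from the match, and an exchange of arrays was not tested. It touches every value that uses an array of osteocalcin III or both III on either chip. Isg15, read on chip B, is among them, with a signal of 703 in osteocalcin III and 1385 in both III. Its both minus osteocalcin difference was 1.93 log2 units without osteocalcin III and 2.16 without both III. Comparisons of Isg15 with the other genes, read on chip A, are touched as well. Without osteocalcin III, the both minus osteocalcin differences described later were 1.17 for Irf1, 0.74 for Irf7, 0.52 for Ifit3 and -0.50 for Bst2 on the log2 scale, and without both III they were 1.04, 0.91, 0.45 and -0.75. The recorded fluidics station, which stains and washes the arrays, differed between groups: on chip B it was station 1 for the both colonies and neither I and station 2 for the rest, and on chip A it was station 2 for both III and the neither colonies and station 1 for the rest. The 3′ to 5′ signal ratio of GAPDH, a sign of RNA and amplification quality, ran from 2.08 to 13.8 on chip A and from 2.12 to 16.4 on chip B, lowest in neither II on both. The same ratio of beta-actin ran from 5.71 to 14.6 on chip A and from 5.32 to 48.7 on chip B, where neither II was the highest and the other 8 colonies reached at most 17.0. Of 7 osteoblast genes on the arrays, 4 passed the filter on dim probe sets, among them Col1a1, at or above the 98.4th percentile of its array in every colony, and 3 failed: Alpl and Ibsp, which reached at most the 25.4th and 45.9th percentile, and Bglap. The defining transcripts of the colony types were dim: Bglap (osteocalcin) reached at most the 22.3rd percentile and Cfd (adipsin) at most the 40.6th, so the arrays do not show the labelled markers at a clear level. The highest Bglap signal, 299, was in neither III, against the label, and the osteocalcin colonies had 27.1 to 55.9. Of the 16 macrophage markers on the arrays, 8 failed the filter, among them Ptprc, Itgam, Tyrobp, C1qa, C1qb and C1qc. The other 8 passed, among them Csf1r (46.2nd to 79.7th percentile), Aif1 (50.7th to 82.7th), Fcer1g (52.1st to 86.2nd) and Cd14 (up to the 85.4th). The summed signal of the list was 10020.0 to 16677 in the osteocalcin, 7408 to 13089 in the both and 10828 to 15263 in the neither colonies. In colony RNA, fewer cells making a transcript and less transcript per cell cannot be told apart.

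**Figure D1:**
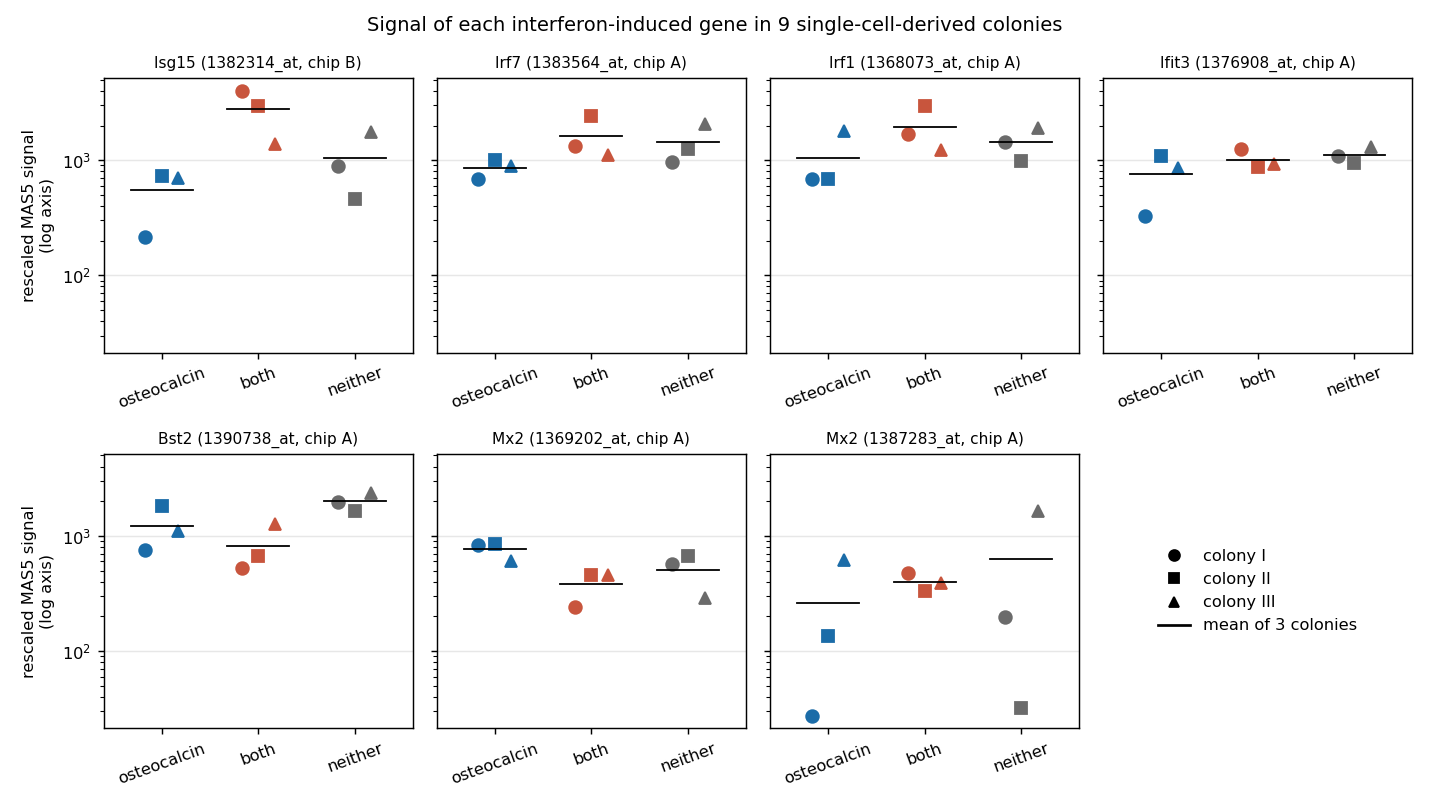
Rescaled MAS5 signal (log axis) of the 7 probe sets of the 6 genes in the 9 colonies, by colony type; each point is 1 colony and each line is the mean of 3. The both colonies of Isg15 lie at 1385 or more and its osteocalcin colonies at 723 or less, while the 2 probe sets of Mx2 show different orders.

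Irf7, the factor that amplifies type I interferon production, was above the median of its array in all 9 colonies. Its signal was 684, 1002 and 893 in osteocalcin I, II and III. It was 1337, 2439 and 1104 in both I, II and III, and 974, 1252 and 2083 in neither I, II and III. All 3 both colonies were above all 3 osteocalcin colonies, and the neither colonies spanned both ranges. The group means were 860 ± 162 (SD, n = 3) in osteocalcin, 1627 ± 713 in both and 1436 ± 577 in neither colonies.

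Irf1, a factor induced most directly by interferon gamma, was above the array median in 8 of 9 colonies. Its signal was 681, 684 and 1802 in osteocalcin I, II and III. It was 1682, 2937 and 1218 in the both colonies and 1448, 977 and 1891 in the neither colonies, in the same order. Osteocalcin I and II were the lowest and osteocalcin III was the third highest, so the 3 types overlapped. The group means were 1056 ± 646 (SD, n = 3), 1946 ± 890 and 1439 ± 457 for osteocalcin, both and neither.

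Isg15, the ubiquitin-like modifier, was read by 1 probe set on chip B and had the highest ratio of highest to lowest colony among the 5 genes tested. Its signal was 217, 723 and 703 in osteocalcin I, II and III, which placed it at the 16.4th to 41.6th percentile of those arrays. It was 4000.45, 2976 and 1385 in both I, II and III, the 60.1st to 90.4th percentile. In neither I, II and III it was 892, 464 and 1774. The both colonies stood above every osteocalcin colony, and neither III lay between both II and both III. The group means were 548 ± 286 (SD, n = 3), 2787 ± 1318 and 1043 ± 668. The probe set was above the array median in 4 colonies, the 3 both colonies and neither III, so it entered the test only through the colonies in which it was bright.

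Ifit3, a member of the family of interferon-induced proteins with tetratricopeptide repeats, varied least on the log scale among the 5 genes tested. Its signal was 324, 1093 and 859.97 in the osteocalcin colonies I, II and III. It was 1243, 869 and 924 in the both and 1098, 946 and 1295 in the neither colonies. Apart from osteocalcin I, all colonies lay between 859.97 and 1295, and the 3 types overlapped.

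Bst2, or tetherin, was first described as a surface antigen of bone marrow stromal cells and is also carried by plasmacytoid dendritic cells. Its signal was 761, 1819.98 and 1097 in the osteocalcin colonies I, II and III. It was 523, 675 and 1257 in the both and 1977, 1658 and 2352 in the neither colonies. Every neither colony was above every both colony, and osteocalcin II lay within the neither range. The group means were 1226 ± 541 (SD, n = 3) in osteocalcin, 818 ± 388 in both and 1996 ± 347 in neither colonies.

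Mx2, the antiviral GTPase, had 2 probe sets, and both were too dim for the filter, with 2 and 1 arrays above the array median. The brighter gave 839, 850.1 and 600.04 in the osteocalcin, 242, 455 and 457 in the both and 566, 664 and 286 in the neither colonies I, II and III. The dimmer gave 27.3, 136 and 621 in the osteocalcin, 479, 335 and 389.6 in the both and 198, 31.8 and 1642 in the neither colonies. The 2 probe sets ordered the colonies in nearly opposite ways (r = -0.76, n = 9 colonies). With no filter on dim probe sets, both minus osteocalcin was -0.70 (SE 0.42) on the log2 scale by the first and 0.53 (SE 0.63) by the second, with an adjusted p of 0.9998 by limma for each. Rat Mx genes are close in sequence, and which of them each probe set reads was not tested, so no direction is given for Mx2.

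The comparison of both with osteocalcin colonies asks which transcripts go with adipsin in colonies that share osteocalcin. Differences were taken on log2(signal + pseudocount), with a pseudocount of 239 on chip A and 336 on chip B, which understates the change of dim genes, and tested with limma over all 19312 probe sets with a signal over the median of the array on 3 or more of the 9 arrays. Of the 5 genes tested, 4 were higher and 1 was lower in the both colonies, and 0 had an adjusted p under 0.05, as in 0% of all probe sets. At an unadjusted p under 0.05 there was 1 of 5, against 3.39% of all probe sets, and the groups did not overlap for 2 of 5, Isg15 and Irf7, against 10.1%. The 1 of 5 was Isg15, which had passed the filter only through the both colonies and neither III, where it was bright. The 2 counts each hold Isg15, so they are not read as an excess over all probe sets. The median difference of the 5 was 0.71, beside -0.01 over all probe sets tested, of which 48.8% were higher.

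Isg15 was 1.78 (SE 0.57) log2 units higher in the both than in the osteocalcin colonies, a 3.44-fold difference with a 95% interval from 0.59 to 2.98 log2 units (unadjusted p = 0.0058, adjusted p = 0.9998, limma). The difference was 1.47 to 2.16 when any 1 colony was left out. All both arrays of chip B were run on the other station than the osteocalcin arrays, and with station as a block, which is linked through the neither colonies, the difference was 1.86 (adjusted p = 0.77, limma). Irf1 was 0.79 (SE 0.43) and Irf7 0.71 (SE 0.38) log2 units higher, with intervals that include 0, from -0.13 to 1.71 and from -0.11 to 1.53. Without both II, the colony highest for both factors, these differences were 0.48 and 0.42. Within station 1, where both I and II and the osteocalcin colonies were run, they were 1.04 for Irf1 and 0.91 for Irf7.

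Ifit3 was 0.40 (SE 0.39) log2 units higher in the both colonies, but 0.04 without osteocalcin I and 0.66 without osteocalcin II. Bst2 was 0.47 log2 units lower in the both colonies, written as both minus osteocalcin -0.47 (SE 0.38), with a 95% interval from -1.30 to 0.36. This direction turned to 0.16 on the signals as deposited, a scaling that shifts the median of all chip A probe sets by 0.86. Leaving out single colonies moved the Bst2 difference between -0.19, without osteocalcin II, and -0.75, without both III; it was -0.26 without both I and -0.71 without osteocalcin I.

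**Figure D2:**
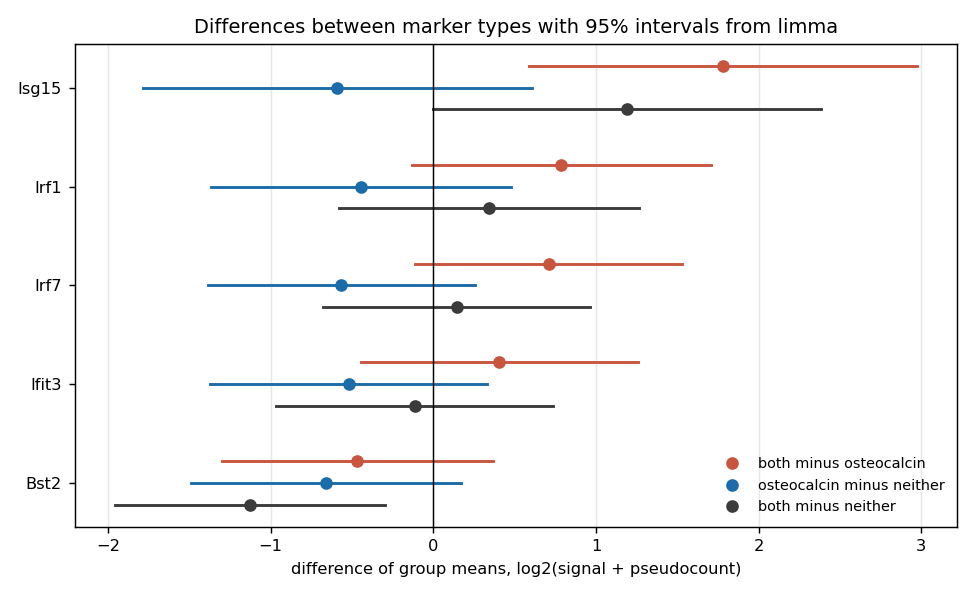
Difference of group means on the log2(signal + pseudocount) scale for the 5 genes tested in the 3 comparisons; points are limma estimates and lines are 95% intervals (n = 3 colonies a type). The intervals of Isg15 for both minus osteocalcin (0.59 to 2.98) and of Bst2 for both minus neither (-1.96 to -0.30) leave out 0, and 0 adjusted p-values were under 0.05.

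The comparison of osteocalcin with neither colonies asks what goes with osteocalcin alone. All 5 genes tested were lower in the osteocalcin colonies, with differences from -0.44 to -0.66 log2 units, of which Bst2 turned to 0.18 with station as a block. None had an adjusted p under 0.05 by limma (0% of all probe sets), 0 of 5 had an unadjusted p under 0.05 (7.5% of all), and 0 of 5 had groups that did not overlap (12.2% of all). The median of the 5 was -0.57, beside 0.03 over all probe sets, of which 51.9% were higher. The single differences were -0.66 (SE 0.38) for Bst2, -0.59 (SE 0.57) for Isg15, -0.57 (SE 0.38) for Irf7, -0.52 (SE 0.39) for Ifit3 and -0.44 (SE 0.43) for Irf1. Every 95% interval included 0. On chip A the osteocalcin and neither colonies shared no station, and with station as a block, linked through the both colonies, Irf1 was -1.21 and Irf7 -1.18.

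Leaving out single colonies moved these differences. Without osteocalcin I the differences were -0.15 for Ifit3, -0.28 for Isg15, -0.25 for Irf1 and -0.42 for Bst2. Without neither III they were -0.23 for Isg15, -0.30 for Irf7 and -0.25 for Irf1. For Irf1 the difference was -0.25 without osteocalcin II and -0.83 without osteocalcin III, and for Isg15 it was -0.93 without neither II. The 3 comparisons share their colonies, so their values are not independent of each other.

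The comparison of both with neither colonies sets both markers against none. Isg15 was 1.19 (SE 0.57) log2 units higher in the both colonies (unadjusted p = 0.050, adjusted p = 0.51, limma), and within station 1, against neither I alone, the difference was 1.25. Bst2 was lower in the both colonies, at -1.13 (SE 0.38) log2 units, so that the neither colonies were 2.19-fold higher (unadjusted p = 0.012, adjusted p = 0.44, limma). Within station 2, where both III and the neither colonies were run, the Bst2 difference was -0.57. Irf1 (0.34), Irf7 (0.14) and Ifit3 (-0.12) lay within 1 SE of 0, and each of them changed sign under at least 1 alternative: with station as a block Irf1 was -0.17 and Irf7 was -0.26, and with quantile normalization Ifit3 was 0.12. Irf7 was also -0.15 without both II and -0.06 without neither I. Irf1 was 0.03 without both II, 0.13 without neither II, 0.60 without both III and 0.53 without neither III.

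Across this comparison 3 of 5 genes were higher and 2 lower, 0 were called (0% of all probe sets), 1 had an unadjusted p under 0.05 (9.75% of all), and 1, Bst2, had groups that did not overlap (14.6% of all). The median was 0.14, beside 0.01 over all probe sets, of which 50.8% were higher. Beside the Bst2 difference, the summed signal of the 6 lymphocyte markers on the arrays was 3679 to 4296 in the neither and 2049 to 2641 in the both colonies, with 2 of the 6, Cd4 and Lck, past the filter; each of these overlapped between the types. The summed signal of the 3 osteoclast markers on the arrays was 6569.8 to 7019.7 in the neither and 13901 to 28084 in the both colonies, most of it from Ctsk, the protease cathepsin K, at 3624 to 5624 and 12856 to 26226. Calcr, the other osteoclast marker past the filter, overlapped, at 752 to 2528 in the neither and 731 to 972 in the both colonies. Acp5 failed the filter, so the difference in the sum is that of Ctsk and not of the list. The macrophage sums, given above, overlapped, but some single markers did not. Cd74 was 991 to 1680 in the neither and 304 to 549 in the both colonies. Csf1r was 1533 to 1611 and 615 to 1033, and Aif1 was 1412 to 2254 and 718 to 1190. The other macrophage markers past the filter, Cd68, Cd14, Cd163, Fcer1g and Lyz2, overlapped. The part of the cell type markers in the result was not tested. In limma's F test over the types together, the adjusted p was 0.68 for Isg15 and 0.70 for Bst2, and 0% of all probe sets had one under 0.05. Both had an unadjusted p under 0.05 there, as did 7.06% of all probe sets.

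The colonies also differed within a type. Osteocalcin I was the lowest of the 9 for 4 of the 5 genes, all but Bst2, for which it ranked 7. Neither III ranked among the 3 highest for 5 of 5, with a mean rank of 1.8, and was the highest for Bst2 and Ifit3. Both II was the highest for Irf1 and Irf7. Both I was the highest for Isg15 and the lowest for Bst2. The ratio of the highest to the lowest colony was 18.4 for Isg15, where the median probe set of chip B had 7.35, and its SD over colonies was above that of 88.6% of chip B probe sets. On chip A the ratios were 4.50 for Bst2, 4.31 for Irf1, 3.99 for Ifit3 and 3.57 for Irf7, around the chip's median of 4.12.

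**Figure D3:**
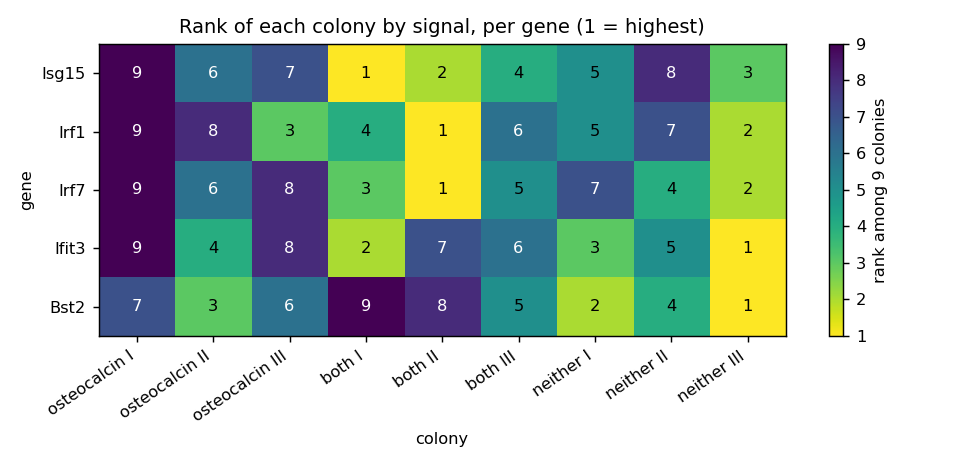
Rank of each of the 9 colonies by signal (1 = highest) for the 5 genes tested; each cell is 1 colony and 1 gene. Osteocalcin I ranks 9 for Isg15, Irf1, Irf7 and Ifit3, and neither III ranks 3 or better for all 5.

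As a description over the 9 colonies, which share their arrays and scaling, Isg15 followed Irf1 (r = 0.75) and Irf7 (r = 0.73), and the 2 factors followed each other (r = 0.75). Without the 2 colonies farthest from the Irf1 median, osteocalcin I and both II, the value for Irf1 and Irf7 was 0.37. Without the 2 farthest from the Isg15 median, both I and both II, those for Isg15 were 0.68 with Irf1 and 0.75 with Irf7. Ifit3 followed Isg15 at r = 0.61, Irf7 at 0.51 and Irf1 at 0.42. Bst2 had r = -0.36 with Isg15, -0.23 with Irf1 and 0.40 with Ifit3. The value of Bst2 with Isg15 became 0.65 without the same 2 colonies, both I and both II, which were also the 2 lowest for Bst2. Of the 10 pairs 7 had r above 0, with a median of 0.47, where 49.9% of all pairs of probe sets did. Pairs that hold Isg15 cross the 2 chips.

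The genes with the most similar profile over the 9 colonies were picked from all other named probe sets past the filter, so high values are the outcome of a wide search. For Isg15 they were Dmac1 (r = 0.88), Nab2 (0.87) and Snx24 (0.87). For Irf7 they were Ptn (0.96), Ckap2 (0.92) and Gucy1b1 (0.89), and for Irf1 they were Ralgdsl1 (0.98), Zwilch (0.88) and Clspn (0.86). For Bst2 they were Dcaf4 (0.98), Cdk5rap2 (0.98) and Cacnb3 (0.98), and for Ifit3 they were Otud7a (0.95), Ell2 (0.94) and Enah (0.92). The 6 genes themselves were left out of this search.

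The rest of the pathway was read from lists of 114 genes, of which 81 were on the arrays and 57 passed the filter. None of the 57 was called in any comparison by limma, and at an unadjusted p under 0.05 there were 2, 3 and 7 for both minus osteocalcin, osteocalcin minus neither and both minus neither. These are 3.51%, 5.26% and 12.3% of the 57, near the 3.39%, 7.5% and 9.75% of all probe sets. In the first of these, 38 of 57 (66.7%) were higher and 19 lower, with a median difference of 0.17, where 48.8% of all probe sets were higher with a median of -0.01. Of the 26 other interferon-induced effectors, 19 (73.1%) were higher and 7 lower, with a median of 0.34. The arrays held 37 effectors, and those that failed the filter include Rsad2, Oas1a, Mx1 and Tap1. The share is thus that of the brighter effectors, and it was not tested. In osteocalcin minus neither 25 of the 57 were higher and 32 lower (median -0.05). In both minus neither 32 were higher and 25 lower (median 0.11). The genes named next have the smallest p over the 3 types in their list, so their values are a selection.

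The interferons on the arrays, Ifnb1, Ifng and Ifnk, did not pass the filter, and the other listed interferons had no probe set of their own. Of 13 ligands listed 5 were on the arrays and 1, the cytokine Lif, passed the filter. Ifnb1, interferon beta, reached at most the 24.0th percentile of its array and Ifng, interferon gamma, the 37.0th. Ifnk, interferon kappa, was above the array median on 1 array, at the 58.5th percentile in osteocalcin III. All 6 receptor chains on the arrays passed. Ifnar1, a chain of the type I interferon receptor, had signals of 499, 739 and 673 in the osteocalcin, 546, 734 and 807 in the both and 1685, 664 and 3359.64 in the neither colonies, so neither I and III were apart from the other 7. This is 1 of 7 probe sets of Ifnar1, and the others were not compared. Ifnar2, its partner chain, was within 1122 to 2573 and Ifngr2, a chain of the interferon gamma receptor, within 1621 to 3098 in all colonies.

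Among the signalling genes, the kinase Jak1 was 1.58 (SE 0.63) log2 units higher in both than in neither colonies (adjusted p = 0.45, limma). Its signal of 3135 in neither III stood far below the 18958 to 45096 of the other 8 colonies. Stat2 and Irf9, which act together in type I interferon signalling, differed by 0.43 (SE 0.43) and -0.37 (SE 0.40). Irf2, a factor that opposes Irf1 at shared sites, was 1434, 2018 and 1496 in the both colonies, 459, 1036 and 425 in the osteocalcin and 768, 164 and 219 in the neither colonies. The both colonies of Irf2 were thus above all 6 others, by 1.07 (SE 0.56) log2 units over osteocalcin and 1.55 (SE 0.56) over neither (adjusted p = 0.9998 and 0.44, limma). Its signal was below the array median in osteocalcin III, neither I and neither II. Irf2 thus entered the test through colonies in which it was bright, the both colonies among them, and its differences are given as a description. Irf2 was read by 1 of its 3 probe sets, on chip B. There the both colonies and neither I were run on station 1, and the rest on station 2. Among the neither colonies neither I was also the highest, and the part of station was not tested. Irf8, a factor of myeloid cells, and Irf2bp2, a corepressor bound by Irf2, overlapped between all types. The sensor genes Tbk1, Mavs and Myd88 had both minus osteocalcin differences of 0.29, 0.30 and 0.07.

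The effectors with the smallest p were Ifi27, Ifitm2 and Ifitm3. Ifitm2 and Ifitm3 encode membrane proteins that block virus entry. Ifitm2 had signals of 8789.94, 9221 and 8753 in the osteocalcin, 14214, 14043 and 17163 in the both and 6043, 10406 and 8109.91 in the neither colonies. The both colonies were above all 6 others, at 0.74 (SE 0.32) log2 units over osteocalcin and 0.90 (SE 0.32) over neither (adjusted p = 0.9998 and 0.44, limma). Ifitm3 was 1.04 (SE 0.43) log2 units higher in both than in osteocalcin colonies, but neither II, at 22297, lay among the both colonies at 19770.3, 25376 and 20418. Ifi27, which encodes a small mitochondrial and nuclear membrane protein, was 13102 to 19525 in the neither colonies and 26551 or more in the other 6. It was 0.94 (SE 0.35) log2 units higher in osteocalcin than in neither colonies (adjusted p = 0.62, limma), where each of the 5 genes described first was lower.

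The 3 tested genes that attach and remove Isg15 differed in direction among themselves. Uba7, its activating enzyme, Ube2l6, its conjugating enzyme, and Usp18, the protease that removes it, had both minus osteocalcin differences of -0.40 (SE 0.42), 0.44 (SE 0.37) and -0.33 (SE 0.45). Among the inhibitors, Trex1, an exonuclease that degrades cytosolic DNA, was 4591, 4710.2 and 5430.0 in the osteocalcin, 6433, 4161 and 7272 in the both and 2365, 1061 and 753 in the neither colonies. All 6 colonies with osteocalcin were above the 3 without, by 1.71 (SE 0.42) and 1.94 (SE 0.42) log2 units, with adjusted p-values of 0.61 and 0.17 (limma). Socs3, a feedback inhibitor of cytokine receptors, was 0.96 (SE 0.47) log2 units higher in osteocalcin than in neither colonies.

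**Figure D4:**
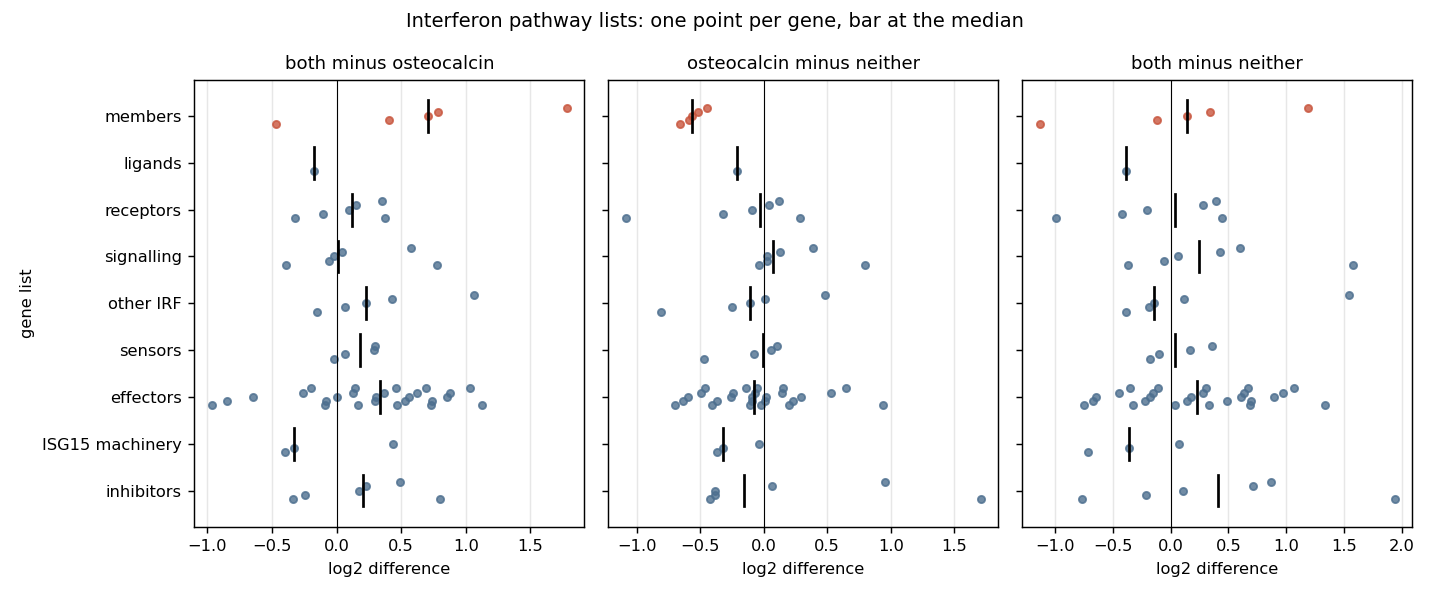
Log2 difference of each tested gene in the 3 comparisons, by gene list; each point is 1 gene (5 members, and 57 genes in the other lists) and each bar is the list's median. The members have medians of 0.71, -0.57 and 0.14, and the 26 effectors have medians of 0.34, -0.08 and 0.23.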

How the data were processed

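The authors deposited signal intensities of each probe set on a linear scale, made with MAS5 per the submitters' processing notes. Array records deposited beside them gave the fluidics station. Each of the 18 arrays was brought to a 2%-trimmed mean of 1500. Control probe sets (57 a chip) were left out, and probe sets above the array median on at least 3 of 9 arrays were kept (9425 on chip A, 9887 on chip B). Log2(signal + pseudocount) was fitted per chip (limma 3.58.1, R 4.3.3; a mean for each type, 6 residual degrees of freedom, intensity trend), with two-sided tests and Benjamini-Hochberg adjustment over both chips together. The pseudocount was the median over arrays of the 25th percentile. An exact permutation of 3 against 3 colonies cannot go below p = 0.1, and the number of arrays limits precision.

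The members, lists, motifs and tests were chosen with earlier results of these data known. Named were every member, the 3 most similar genes of each tested member by Pearson's r, and at most 3 genes of each list with the smallest p over the 3 types, of which 1 inhibitor is not reported here; a gene of several probe sets was read by its chip A probe set before chip B, then by the brightest. Probe sets were named from the platform annotation. In simulated data for both against osteocalcin (19075 probe sets) the test called 0% of changes of 1 log2 unit, 42% of 2, 72% of 3 and 96% of 4. Alternatives were scaling, normalization, pseudocount, filter, array weights, intensity trend, replicate block, station block and each colony left out; both III alone against osteocalcin, and differences within a station, were added after seeing the data.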

Additional observations from a re-analysis of the deposited data

How the results depend on the processing

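Under 19 alternatives, 0 of the 5 genes tested was called in any comparison by limma, and as reported 1, 0 and 1 of the 5 had an unadjusted p under 0.05 in the 3 comparisons. Of 285 differences, 114 moved by at most 0.001 (most of these alternatives change only the test or a colony of the type not compared), 163 moved and kept their direction, and 8 turned. Isg15 for both minus osteocalcin ran from 1.47 to 2.41, with adjusted p-values down to 0.052 (array weights). Bst2 for both minus osteocalcin turned to 0.16 on signals as deposited, which shift the chip A median by 0.86, and to 0.095 with both III alone; for osteocalcin minus neither it turned to 0.18 with station as a block. For both minus neither, Irf1 (-0.17) and Irf7 (-0.26) turned with station as a block, Ifit3 turned with quantile normalization (0.12) and array weights (0.085), and Irf7 ran from -0.15 to 0.41 with single colonies left out. The cause was not tested. For both minus osteocalcin the count of all probe sets called was 0, and 1 as deposited, 87 with array weights, 2 with the replicate block and 0 to 1 with single colonies left out. For both minus neither it was 0, 10 with array weights and 0 to 1 with single colonies left out. Over the 3 types it was 0, 1 as deposited, 74 with array weights, 1 with the replicate block and 0 to 1 with single colonies left out. Numbers I, II and III share no stated source, and same-numbered colonies correlated from -0.15 to 0.32, so the replicate block is no pairing. Quantile normalization changed the colony order of Ifit3 most (rho = 0.73 with the reported order) among the 5 genes. The other probe set of Mx2 gave a mean log2 level of 9.11 against 9.57.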
